A study of Rattus norvegicus with 18 samples.

Results

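The 6 arrays described here compared MEF2-VP16-ER with its control construct in cultured rat hippocampal neurons after 1 h of 4-hydroxytamoxifen (4OHT). They were chosen by their titles, 3 for each construct, from 18 arrays that also covered 0 h and 2.5 h of 4OHT. The neurons were grown in dissociated culture and received a lentivirus on day 3 in vitro. In 1 group the virus expressed MEF2-VP16-ER, the transcription factor MEF2 joined to the VP16 activation domain and an estrogen receptor domain. In the other group it expressed MEF2deltaDBD-VP16-ER, the same fusion lacking the DNA-binding domain, which is the control construct. Both groups were given 4OHT on day 10, so the virus, VP16, the estrogen receptor domain and the ligand were common to both. The labels number 3 biological replicates in each group but do not say whether these were separate cultures or animals, so p-values measure only the spread between these samples. The promoter that drove the constructs and the share of cells that carried them are not given in the sources used here.

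MEF2 proteins are MADS-box transcription factors that bind AT-rich sites in muscle and nerve cells. In neurons, calcium entry during synaptic activity turns them from repressed to active, partly by releasing class IIa histone deacetylases, and they are known for a role in synapse number. VP16 is a strong activation domain from a herpesvirus, and an estrogen receptor ligand-binding domain holds a fused protein inactive until 4OHT binds it. The comparison at 1 h asked which transcripts differ, early after the ligand, between a fusion that has the DNA-binding domain and one that lacks it.

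Deposited intensities are on a linear scale, with array medians between 191.3 and 195.1 over the 6 arrays. Differences are those of log2(intensity + 16), MEF2-VP16-ER minus control, so fold changes of dim genes are understated. Higher and lower are used for genes with a limma adjusted p under 0.05 over all 31042 probe sets tested. Differences had a median SE of 0.08 log2 units, a precision set by 3 arrays a group. Arrays of the 2 constructs with the same replicate number deviated together at 1 h, with residual correlations of 0.67, 0.43 and 0.79, so each result is given without and with a block for the number. The 3' to 5' signal ratio of actin is a sign of RNA integrity. It was between 0.88 and 1.41 log2 units in control neurons and between 0.93 and 1.47 with MEF2-VP16-ER. In both groups replicate 3 had the lowest ratio, and the part of this in the results was not tested.

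Without the block, 19 of 31042 probe sets differed between the constructs (0.0612% of those tested). Of these, 17 were higher (0.0548%) and 2 lower (0.00644%) with MEF2-VP16-ER. They named 11 genes that were higher and 1 that was lower, beside 3 probe sets with no gene name. With the block, 79 probe sets differed (0.254%), 59 higher (0.190%) and 20 lower (0.0644%), among them all 19. These named 42 higher and 13 lower genes, with 15 probe sets unnamed. The median difference of the 59 higher probe sets was 0.77 log2 units and that of the 20 lower ones -0.51. A difference of 2-fold or more was reached by 17 of the higher and 2 of the lower probe sets. On the 6 arrays alone, with 2 residual degrees of freedom, 76 probe sets passed with the block, 53 of them among the 79. Without the block 0 passed on these arrays, and 643 of 31042 had an unadjusted limma p under 0.05. Leaving out 1 array at a time gave 12 to 15 calls without the block. The lowest count, 12, was reached without control replicate 1, control replicate 3 or MEF2-VP16-ER replicate 1. With the block the counts were 42 without control replicate 1, 50 without control replicate 2, 48 without control replicate 3, 55 without MEF2-VP16-ER replicate 1, 52 without MEF2-VP16-ER replicate 2 and 45 without MEF2-VP16-ER replicate 3.

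**Figure D1:**
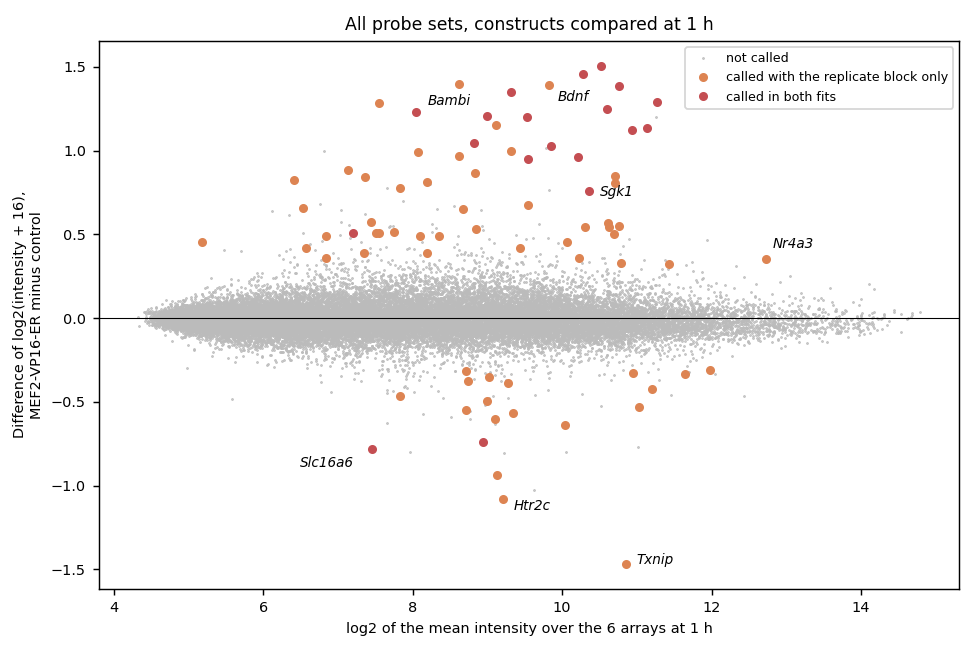
Difference of log2(intensity + 16) between MEF2-VP16-ER and control neurons at 1 h (y axis) against log2 of the mean intensity over the 6 arrays (x axis), 1 point for each of 31042 probe sets. Grey points did not pass, orange points passed with the replicate block alone and red points in both fits; the coloured points lie mostly above 0, with 59 higher and 20 lower.

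The plot of all probe sets shows that the called genes were few and that most were higher. Across all probe sets the median difference was -0.01 log2 units, and 45.3% were above 0. Of the 19 probe sets called without the block, 19 had all 3 MEF2-VP16-ER arrays on one side of all 3 control arrays, and of the 79 called with it 68 did. Over all probe sets 6.49% did so, 2.63% with MEF2-VP16-ER above and 3.86% with it below. In bulk RNA a difference in the share of cells of a type and a difference in RNA per cell cannot be told apart.

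Among the higher genes called without the block, Cited2 encodes a protein that binds the coactivators CBP and p300. Its intensities were 1710, 1426 and 1196 in control replicates 1 to 3 and 3701, 3434 and 3406 with MEF2-VP16-ER. The lowest MEF2-VP16-ER array was far above the highest control array, and the difference was 1.29 ± 0.14 log2 units (SE, n = 3 a group, 2.44-fold, limma adjusted p = 0.00160). The other Cited2 probe set gave 1.51 ± 0.19 (adjusted p = 0.00446). Klf6, a zinc finger factor of the Krüppel-like family, read 1402, 1699 and 1152 in control neurons and 3296, 3153 and 2859 with MEF2-VP16-ER, again with no overlap. The difference was 1.14 ± 0.13 (2.20-fold, adjusted p = 0.00194), and its other 2 probe sets gave 1.12 and 1.35.

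Nfil3, a leucine zipper factor that mostly represses its targets, read 1089, 965 and 700 in control neurons against 2460, 1778 and 2324. The groups did not overlap, and the difference was 1.25 ± 0.18 (2.37-fold, adjusted p = 0.0124). Nr4a1, an orphan nuclear receptor and an early response gene that is a literature MEF2 target, read 925, 902 and 596 against 1728, 1551 and 1418. The control array of replicate 3 was the lowest of the 6, and every MEF2-VP16-ER array was above every control array, with a difference of 0.96 ± 0.14 (1.95-fold, adjusted p = 0.0122). Without the block, leaving out single arrays took the adjusted p of Nfil3 to at most 0.10 (lost without control replicate 3, MEF2-VP16-ER replicate 1 or MEF2-VP16-ER replicate 3). It took that of Nr4a1 to at most 0.0977 (lost without MEF2-VP16-ER replicate 1 or MEF2-VP16-ER replicate 2). With the block both passed in all 6 such fits.

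Genes that damp signalling pathways were also among the higher ones. Bambi, a membrane pseudoreceptor that lowers TGF-beta family signalling, read 163, 151 and 140 in control neurons and 424, 318 and 393 with MEF2-VP16-ER. The control arrays lay close together and well below the others, and the difference was 1.23 ± 0.11 (2.34-fold). Its adjusted p of 0.000301 was the smallest at 1 h without the block, while with the block Cited2 had the smallest (2.82e-06). Rgs2, which speeds GTP hydrolysis on G-protein alpha subunits, read 658, 621 and 648 against 1493, 1557 and 2482. Its replicate 3 with MEF2-VP16-ER stood above the other two, and the difference was 1.46 ± 0.17 (2.75-fold, adjusted p = 0.00260). The second Rgs2 probe set gave 1.39 ± 0.18. Rgs3, of the same family, read 637, 588 and 557 against 1276, 958 and 1513, a difference of 1.03 ± 0.17 (adjusted p = 0.0364). That holds for 1 of its 3 probe sets, as the other 2 gave 0.03 and -0.07. Spry1, an inhibitor of receptor tyrosine kinase signalling to Ras and MAPK, read 336, 299 and 259 against 587, 657 and 912, a difference of 1.21 ± 0.15 (2.31-fold, adjusted p = 0.00395).

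An enzyme, a channel and a kinase completed the higher genes. Hs3st1, a sulfotransferase that modifies heparan sulfate chains, read 485, 416 and 424 in control neurons and 1209, 905 and 1010 with MEF2-VP16-ER. No array overlapped, and the difference was 1.20 ± 0.11 (2.30-fold, adjusted p = 0.000427). Sgk1, a kinase induced by serum and glucocorticoids, had the tightest groups, 995, 938 and 993 against 1554, 1718 and 1716, a difference of 0.76 ± 0.07 (1.69-fold, adjusted p = 0.000427). Kcna4, which encodes the pore of a fast inactivating potassium channel, read 529, 615 and 390 against 1043, 981 and 935, a difference of 0.95 ± 0.16 (1.93-fold, adjusted p = 0.0425).

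Slc16a6, of the monocarboxylate transporter family, was the lower gene called without the block. It read 239, 216 and 224 in control neurons and 146, 102 and 130 with MEF2-VP16-ER, a difference of -0.78 ± 0.12 (1.72-fold lower, adjusted p = 0.0224). Its other probe set gave -0.43 and did not pass (adjusted p = 0.287). The difference was already -0.42 ± 0.12 at 0 h, before 4OHT, and the control mean went from 159 to 226 while that with MEF2-VP16-ER went from 115 to 126.

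Without the block, single arrays also decided Rgs3, Kcna4 and Slc16a6, each of which passed in 1 of 6 fits with an array left out. Their highest adjusted p was 0.232, 0.281 and 0.152. Rgs3 passed only without MEF2-VP16-ER replicate 2, Kcna4 only without control replicate 2 and Slc16a6 only without MEF2-VP16-ER replicate 1. Rgs2, Cited2, Bambi, Spry1, Hs3st1, Klf6 and Sgk1 passed in all 6 fits. With the block all 12 genes passed in all 6, with adjusted p values of at most 0.0433. These fits left out single arrays only. With replicate number 2 left out as a whole, nearly all of these genes no longer passed without the block. Leaving out number 1 as a whole lowered the count of calls without the block too, though less. With the block, leaving out a whole number also lowered the count of calls, as given at the end.

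**Figure D2:**
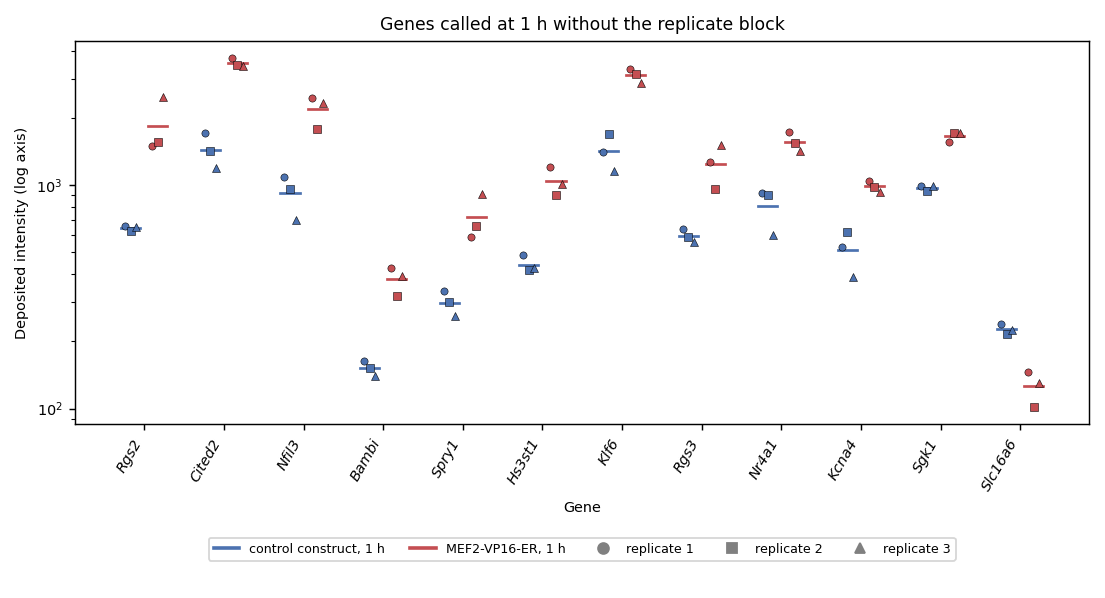
Deposited intensity on a log axis for the 12 genes called at 1 h without the replicate block, 1 point per array with a symbol for each replicate number and a bar at each group mean (blue, control construct; red, MEF2-VP16-ER). The groups of each gene do not overlap, as for Bambi, with 140 to 163 in control neurons and 318 to 424 with MEF2-VP16-ER.

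Promoter sequences are shown for some of the genes that were higher, because the constructs differ in a DNA-binding domain. They are the 250 bases before the RefSeq transcript start in assembly GRCr8, written 5' to 3' along the gene. Capitals mark a match to 1 of 7 motifs searched on both strands: a MEF2 site, a CArG box (the site of the related factor SRF), TGACGTCA (a full cAMP response element), the shorter TGACG within it, an AP-1 site (TGA and TCA around 1 free base), an estrogen response element (GGTCA and TGACC around 3 free bases) and TATAAA. The shorter element was added after the sequences had been seen.
Hdac5, chr10:87688055-87688304, minus strand: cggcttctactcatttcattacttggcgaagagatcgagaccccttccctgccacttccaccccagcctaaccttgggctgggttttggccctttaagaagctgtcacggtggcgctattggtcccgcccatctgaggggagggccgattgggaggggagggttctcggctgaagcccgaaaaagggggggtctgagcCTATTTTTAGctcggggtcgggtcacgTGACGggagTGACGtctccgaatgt
Klf6, chr17:69458479-69458728, minus strand: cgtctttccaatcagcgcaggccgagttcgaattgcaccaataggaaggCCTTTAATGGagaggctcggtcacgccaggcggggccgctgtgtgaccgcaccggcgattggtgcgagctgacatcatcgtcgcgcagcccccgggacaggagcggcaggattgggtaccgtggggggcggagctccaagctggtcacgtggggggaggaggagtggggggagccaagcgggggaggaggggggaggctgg
Nr4a1, chr7:134259888-134260137, plus strand: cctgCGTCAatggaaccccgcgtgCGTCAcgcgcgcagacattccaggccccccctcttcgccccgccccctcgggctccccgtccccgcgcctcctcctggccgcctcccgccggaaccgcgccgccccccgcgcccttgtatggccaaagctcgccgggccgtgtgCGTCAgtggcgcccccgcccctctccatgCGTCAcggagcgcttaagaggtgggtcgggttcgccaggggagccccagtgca
Rgs2, chr13:58352667-58352916, minus strand: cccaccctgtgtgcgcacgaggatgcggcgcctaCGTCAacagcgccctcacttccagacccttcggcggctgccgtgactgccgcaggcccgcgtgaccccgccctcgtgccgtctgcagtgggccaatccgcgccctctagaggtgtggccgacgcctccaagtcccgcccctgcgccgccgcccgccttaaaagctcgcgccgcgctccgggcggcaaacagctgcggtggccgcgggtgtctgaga
Bambi, chr17:58821004-58821253, minus strand: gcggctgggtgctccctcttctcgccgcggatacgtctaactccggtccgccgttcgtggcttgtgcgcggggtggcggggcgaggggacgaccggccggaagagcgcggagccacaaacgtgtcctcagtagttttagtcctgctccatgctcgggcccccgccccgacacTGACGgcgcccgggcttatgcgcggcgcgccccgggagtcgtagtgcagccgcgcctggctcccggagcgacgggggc
Cited2, chr1:14132053-14132302, plus strand: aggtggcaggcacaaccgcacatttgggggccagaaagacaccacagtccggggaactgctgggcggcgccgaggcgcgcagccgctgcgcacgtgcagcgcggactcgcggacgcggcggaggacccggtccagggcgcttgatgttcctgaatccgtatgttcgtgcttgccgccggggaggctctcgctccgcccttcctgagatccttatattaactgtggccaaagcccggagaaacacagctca

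Of 42 higher genes called with the block, 35 had a promoter in the RefSeq table. The MEF2 site occurred in 1 of them, Hdac5 (2.86% against 1.77% of the 11734 array genes with a promoter), at -52 to -43 from the start. A CArG box occurred in Klf6 alone, at -201 to -192 (2.86% against 1.36%). The AP-1 site occurred in 1, Bdnf (2.86% against 5.38%), and neither the full cAMP response element (2.71% of array genes) nor the estrogen response element (0.017%) occurred in any. TGACG occurred in 15 of the 35 (42.9% against 26.7%). Some genes have several promoters, and counted by promoter the shares were 34.1% and 24.9%. In Nr4a1 it occurred 4 times, on the strand opposite to the one printed, and in Rgs2 once. TATAAA occurred in 9 of the 35 (25.7% against 8.63%), and the Cited2 window held none of the motifs. These matches describe the letters in a short window and were not tested. Of the 13 lower genes 7 had a promoter in the table. TGACG occurred in 3 of these 7, the same share as in the higher genes (42.9%), and the full cAMP response element in 2, Irf2bpl and Sstr2 (28.6%), but so few genes give no reliable share.

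With the replicate block 43 further genes differed, 31 higher and 12 lower. Values after ± remain SEs of the fit without the block, also where the adjusted p beside them is from the blocked fit. Bdnf, a neurotrophin released at active synapses, read 679, 546 and 294 in control neurons and 1538, 1416 and 968 with MEF2-VP16-ER. Replicate 3 was the lowest array in both groups, and the same-numbered differences were 1.16, 1.35 and 1.66 log2 units. The mean difference was 1.39 ± 0.36 without the block (2.62-fold, adjusted p = 0.680) and passed with it (SE 0.12, adjusted p = 2.99e-05). The second Bdnf probe set gave 0.39 (adjusted p = 0.0410 with the block) and passed in 0 of 6 fits with an array left out, where its adjusted p was 0.126 to 0.253. Of the 60 probe sets called with the block alone, 38 (63.3%) had replicate 3 lowest in both groups, against 20.8% of all probe sets and 6 of the 19 called without it. A call with the block alone favours probe sets whose same-numbered arrays deviate together, so this share depends in part on that selection.

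Among other regulators of transcription, Klf5, a Krüppel-like factor, read 291, 224 and 124 against 764, 561 and 404 (1.40 ± 0.30, adjusted p = 5.01e-05 with the block and 0.287 without). Of its other 3 probe sets 2 also passed, with 0.82 and 0.49, and 1 gave -0.03. Nr4a2, a nuclear receptor of the Nr4a1 family, read 586, 404 and 293 against 938, 955 and 655 (1.00 ± 0.32). With the block its SE was 0.10 and its adjusted p 0.000188. Nr4a3, of the same family, read 5939, 6030 and 5824 against 7566, 8184 and 7029, a smaller difference of 0.35 ± 0.07 (adjusted p = 0.00380 with the block and 0.155 without). All 3 members of the family were thus higher with the block, and their groups did not overlap.

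Rgs16, another RGS protein, read 480, 348 and 208 against 1028, 691 and 586 (1.15 ± 0.30, adjusted p = 0.00281 with the block). Adamts1, a secreted metalloproteinase, read 99.3, 127 and 67.9 against 319, 371 and 137 (1.28 ± 0.40, adjusted p = 0.0247 with the block). It passed in 1 of 6 fits that left out an array, that without MEF2-VP16-ER replicate 3, with an adjusted p of at most 0.183 in the others. The remaining higher genes included Mylip, a ubiquitin ligase for lipoprotein receptors (0.97 ± 0.17), Pwwp3b (0.88 ± 0.20), the receptor gene Gpr37 (0.87 ± 0.17) and the matrix protein gene Ccn1 (0.84 ± 0.20). Tiparp, an ADP-ribosyltransferase, differed by 0.81 ± 0.22, the deubiquitinase gene Otud1 by 0.81 ± 0.29, Fgl2 by 0.77 ± 0.40, the neuropeptide Y receptor gene Npy1r by 0.67 ± 0.22, the protocadherin gene Pcdh20 by 0.57 ± 0.24 and Zfp46 by 0.57 ± 0.11. None of these passed without the block, and Fgl2 and Pcdh20 had groups that overlapped. With the block and 1 array left out at a time, Ccn1 and Zfp46 passed in 1 of 6 fits, Tiparp and Otud1 in 2 and Fgl2 in 5 (not without control replicate 1), with adjusted p values of at most 0.166.

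Txnip, an arrestin-like protein that binds thioredoxin and limits glucose uptake, lay farthest below control among the named genes. It read 2920, 3170 and 2010 in control neurons and 1322, 1129 and 571 with MEF2-VP16-ER, with replicate 3 lowest in both groups and no overlap. The difference was -1.47 ± 0.34 (2.76-fold lower, adjusted p = 0.000266 with the block and 0.407 without), and -1.13, -1.48 and -1.79 between same-numbered arrays. Htr2c, a serotonin receptor gene, read 997, 880 and 454 against 557, 532 and 128, so that control replicate 3 lay below 2 MEF2-VP16-ER arrays. It differed by -1.08 ± 0.57 (adjusted p = 0.00715 with the block, 0.0665 without control replicate 3), and its other probe set by -0.05. With 1 array left out its difference was between -1.42 and -0.43 without the block and between -1.24 and -0.81 with it.

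Several of the other lower genes encode signalling proteins and regulators. Klf10, a Krüppel-like factor induced by TGF-beta, read 1388, 1315 and 1104 against 1067, 880 and 559 (-0.64 ± 0.19, adjusted p = 0.0219 with the block). Inhbb, a subunit of activin and inhibin, read 503, 728 and 782 against 380, 438 and 472 (-0.60 ± 0.27, adjusted p = 0.00794 with the block). Sstr2, a somatostatin receptor gene, read 547, 530 and 425 against 369, 394 and 257 (-0.55 ± 0.24, adjusted p = 0.0292 with the block). Mycn, of the Myc family, read 2067, 2966 and 2379 against 1576, 1976 and 1545 (-0.53 ± 0.16, adjusted p = 0.00137 with the block). Of these 4 genes Mycn passed with each array left out, Klf10 and Inhbb passed in 2 of 6 such fits and Sstr2 in 1, with adjusted p values of at most 0.188.

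Smaller differences were found for Dcn, the matrix proteoglycan decorin (-0.57 ± 0.32), Zcchc3 (-0.50 ± 0.09), the pentraxin gene Nptx1 (-0.42 ± 0.15), Chodl (-0.33 ± 0.12), the MAPK phosphatase gene Dusp2 (-0.31 ± 0.10) and Irf2bpl (-0.31 ± 0.12). All 6 passed with the block alone. Zcchc3 passed in all 6 fits with an array left out, Nptx1 in 5 (not without MEF2-VP16-ER replicate 3), Dcn in 2, Dusp2 and Irf2bpl in 1 and Chodl in 0, with adjusted p values of at most 0.226. Other probe sets of Zcchc3 (-0.10), Sstr2 (-0.23) and Irf2bpl (-0.11 and 0.04) did not pass.

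**Figure D3:**
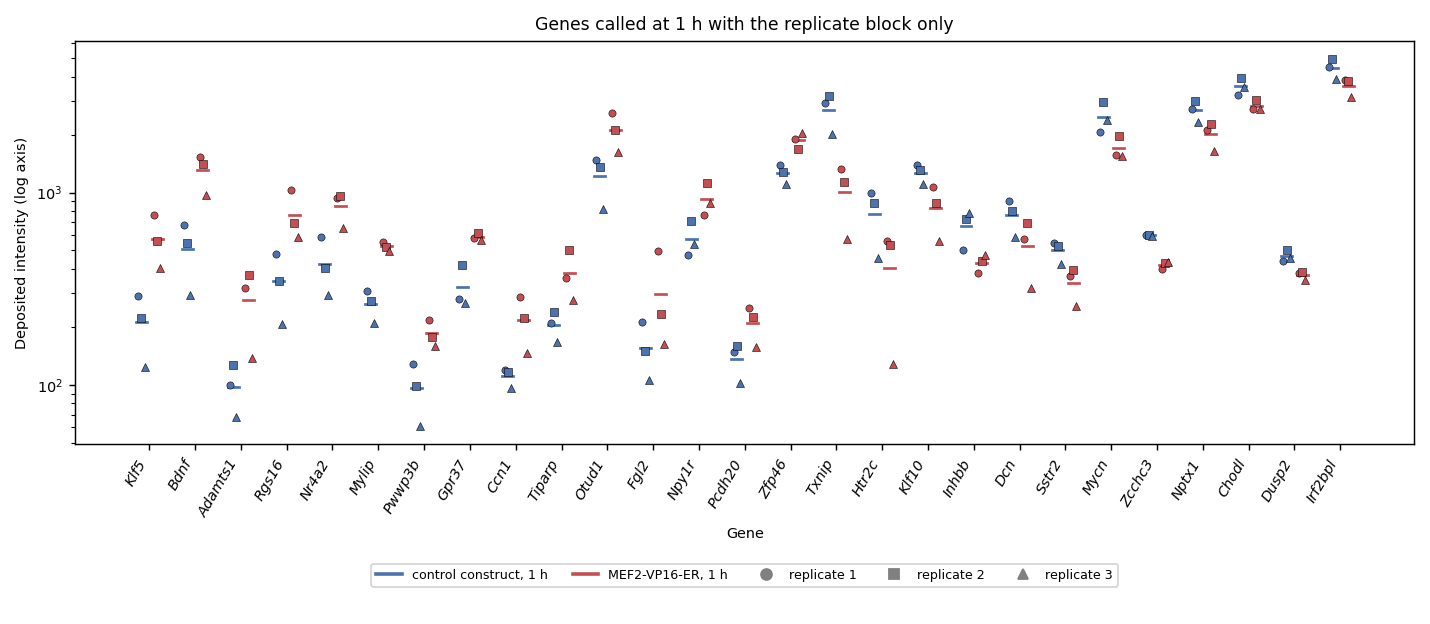
Deposited intensity on a log axis for 27 genes called at 1 h with the replicate block alone, 1 point per array with a symbol for each replicate number and a bar at each group mean (blue, control construct; red, MEF2-VP16-ER). Replicate 3, the triangle, is often the lowest point in both groups, as for Bdnf (294 in control neurons and 968 with MEF2-VP16-ER).

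Genes of the constructs' own parts were not called. The 4 Mef2a probe sets differed by 0.07 to 0.22, Mef2b by -0.06, Mef2c by -0.23 and 0.01, and Mef2d by 0.02 and 0.09, and none passed in either fit. Esr1, the estrogen receptor gene, differed by 0.32 ± 0.15 (adjusted p = 0.470 with the block). Whether any of these probe sets detect the constructs was not examined. Of the 7 measured members of the list of MEF2 genes and class IIa histone deacetylases 1 was called with the block. It was Hdac5, a corepressor of MEF2, which read 1051, 1110 and 918 against 1730, 1297 and 1505 (0.55 ± 0.11, adjusted p = 0.0407 with the block and 0.155 without). Its difference at 0 h was 0.38 ± 0.11, its other probe set gave 0.09, and with the block it passed in 2 of 6 fits that left out an array.

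Gene lists written from general knowledge, but with earlier results of these data known, are described by counts with the block and by medians. Their counts are therefore not independent of these data. Over the 14217 named genes, each with 1 probe set, 0.260% were called higher and 0.0774% lower, with a median difference of -0.01. The share of these genes above 0 was 42.3%. Of 11 measured literature MEF2 targets in neurons, 4 were higher and 0 lower, with a median of 0.13. The 4 were Bdnf, Klf6, Nr4a1 and Sgk1. Arc, an activity-induced synaptic gene on that list, differed by -0.25 ± 0.12, and the 5 probe sets of Homer1, a scaffold gene, by 0.03 to 0.22, with none called. Of 28 immediate early transcription factors 5 were higher (Klf6, Nfil3, Nr4a1, Nr4a2 and Nr4a3) and 1 lower (Klf10), with a median of 0.09. Klf2, on the same list, was called through a probe set other than its brightest, by 0.51.

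Fos and Atf3, which are classical activity markers, were not called. Fos read 2232, 1803 and 700.0 in control neurons and 4031, 3351 and 2579 with MEF2-VP16-ER. The groups did not overlap, but replicate 3 was the lowest in each, and the difference of 1.20 ± 0.61 did not pass with the block (adjusted p = 0.357). Atf3 read 1003, 576 and 224 against 1915, 970 and 613, with groups that overlap, and its difference of 1.02 ± 0.64 did not pass (adjusted p = 0.225 with the block).

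Of 29 activity-regulated effectors 4 were higher (Bdnf, Rgs2, Sgk1 and Ccn1), with a median of 0.11. The 16 measured RGS genes held 3 higher ones, Rgs2, Rgs3 and Rgs16, with a median of 0.05. Of 15 Ras-MAPK feedback genes 2 were higher and 1 lower, with 7 members above 0. The higher ones were Spry1 and Dusp6, a MAPK phosphatase (0.50 ± 0.17, adjusted p = 0.00333), and the lower one Dusp2. Of 32 genes of activin, BMP and TGF-beta signalling 2 were higher and 1 lower, with a median of -0.01. Bambi and the ligand gene Bmp2 (0.51 ± 0.13, adjusted p = 0.0318, but 0.0782 to 0.198 with an array left out) were higher and Inhbb lower, while the other activin subunit gene Inhba differed by 0.62 ± 0.18 and did not pass (adjusted p = 0.121). Id1, a target of BMP signalling, read 543, 489 and 1326 against 376, 307 and 543 and did not pass (-0.81 ± 0.42, adjusted p = 0.245). Cited2 was the 1 called gene of 15 CBP- and p300-linked regulators and Kcna4 of 26 voltage-gated potassium channels. Pcdh20 was that of 41 cell adhesion and axon guidance genes, where its brightest probe set differed by 0.42. With the block that probe set passed in 0 of 6 fits with an array left out (adjusted p = 0.0696 to 0.225). The Pcdh20 probe set named earlier passed in all 6.

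Of 38 muscle MEF2 targets 0 were called in either fit, with 19 above 0. The largest of their differences was that of Col10a1, a cartilage collagen gene (0.61 ± 0.19, adjusted p = 0.273 with the block). It read 63.6, 60.1 and 58.5 against 112, 79.3 and 116. No member was called in the lists of glutamate receptors (35 measured), GABA receptors (13), synaptic vesicle proteins (29), oxidative phosphorylation (41), cholesterol synthesis (21), heat shock (24), interferon response (25), estrogen receptor targets (17), p53 targets (14) and the cell cycle (24). The lowest of their medians was -0.06, for oxidative phosphorylation, where 8 of 41 genes were above 0 (42.3% of all named genes were). The widest spread was in the heat shock list, from -0.32 to 0.56.

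**Figure D4:**
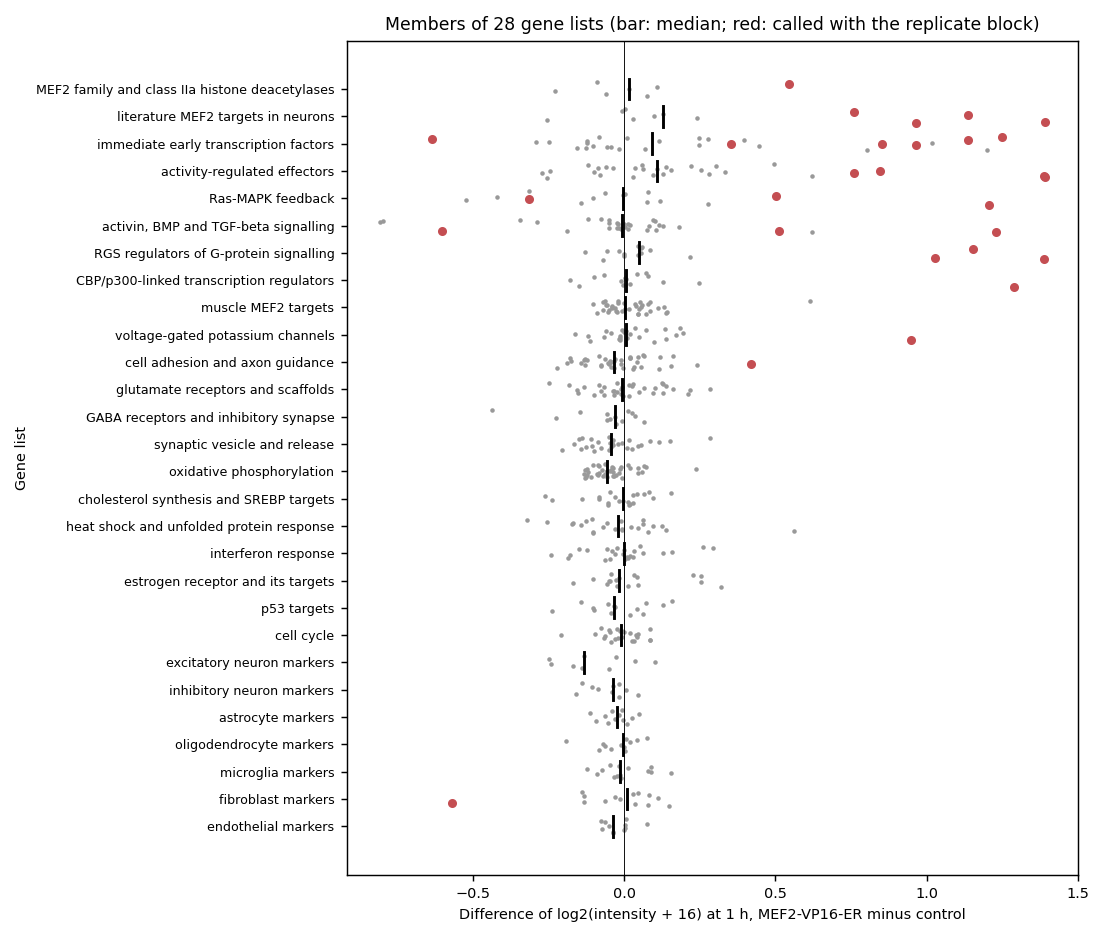
Difference of log2(intensity + 16) at 1 h, MEF2-VP16-ER minus control, for each measured member of 28 gene lists (1 point per gene, black bar at the list's median, red points called with the replicate block). Most members lie near 0. Some red points lie far from their list's median, such as Bambi at 1.23 in activin, BMP and TGF-beta signalling, while uncalled members such as Id1 at -0.81 can lie as far.

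The plot of lists shows single called members in lists whose medians were near 0, and also uncalled members with differences as large. Markers of the cells in the culture were checked in the same way. The neuronal gene Snap25 read 9584, 9196 and 8784 in control neurons and 9221, 9089 and 8362 with MEF2-VP16-ER. Gfap, an astrocyte marker, was present at 11793, 9080 and 4160 against 13336, 8591 and 3962, with replicate 3 lowest in both groups. The summed intensity of 12 astrocyte markers was 47314 to 59148 in control neurons and 44459 to 63490 with MEF2-VP16-ER. For 12 oligodendrocyte markers it was 9462 to 18597 and 8487 to 18831, for 14 microglia markers 1853 to 2152 and 1941 to 2014, and for 11 endothelial markers 1439 to 2409 and 1493 to 2355. For 14 fibroblast markers it was 8780 to 15401 and 8296 to 15803, and Dcn was the 1 marker of any cell type that was called. The 9 excitatory neuron markers summed to 15334 to 17464 and 13128 to 15803, with 2 members above 0 and a median difference of -0.13. The 10 inhibitory neuron markers summed to 6353 to 7883 and 5846 to 7773. The part of these levels in the results above was not tested.

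The same comparison at 0 h and 2.5 h used other arrays but the same fit, so the time points share the estimate of each probe set's spread. A probe set with a low estimate is favoured at every time, so calls shared between times are not independent. At 0 h, before 4OHT, 0 probe sets differed without the block and 1 with it (0.00322%). That 1 was Kitlg, the gene of a growth factor for the receptor Kit, which differed by 0.40 at 0 h, 0.33 at 1 h and 0.89 at 2.5 h. Unadjusted limma p values under 0.05 were more frequent at 0 h (2736 without the block, 4511 with it) than at 1 h (846 and 1736). The near absence of calls at 0 h therefore does not show that the constructs were alike before 4OHT. The 59 higher probe sets had a median of 0.13 at 0 h, 0.77 at 1 h and 0.98 at 2.5 h, and the 20 lower ones -0.06, -0.51 and -0.59. These probe sets were called on the 1 h difference, which favours larger values at 1 h than at 0 h. At 2.5 h 1083 probe sets differed with the block (3.49%), among them 66 of the 79 (83.5% of these and 6.09% of the 1083), and none of the 79 had the opposite sign. Without the block 397 differed at 2.5 h (1.28%), among them all 19 called at 1 h.

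Genes varied in what followed. Hs3st1 differed by 0.04 at 0 h, 1.20 at 1 h and 2.44 at 2.5 h, Rgs2 by 0.15, 1.46 and 2.22, and Pwwp3b by 0.12, 0.88 and 2.41. Klf6 had almost its whole difference at 1 h, with 0.15, 1.14 and 1.04. Sstr2 (-0.03, -0.55 and -1.33) and Inhbb (0.01, -0.60 and -1.20) were farther below control at 2.5 h, and Txnip (-0.14, -1.47 and -1.27) was not. Bmp2 differed by 0.51 at 1 h and 0.11 at 2.5 h, a time at which it was not called. Of the 79 probe sets 49 were farther from 0 at 2.5 h than at 1 h.

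The differences between time points were tested as well, and both share the 1 h arrays with the comparison above. Against 0 h, 1 probe set had a difference that was larger at 1 h without the block (0.00322%), that of Bambi (1.26 ± 0.15, adjusted p = 0.0200). With the block 9 did (0.0290%), 8 of them toward higher values (0.0258%) and all among the 79. They were Bambi, both Cited2 probe sets, Hs3st1, 2 of Klf6, Klf5, Nr4a2 and, toward lower values, Mycn. The rule for using the block did not hold for this comparison, where 17 of 18 same-numbered pairs had a residual correlation above 0.1. From 1 h to 2.5 h the difference moved in 13 probe sets without the block (0.0419%), 12 of them upward (0.0387%), and in 124 with it (0.399%), of which 2 and 12 were among those called at 1 h in the same fit. Hs3st1 was one of them, with a further 1.24 ± 0.16 (adjusted p = 0.00801), while Pwwp3b (1.53), Kcna4 (0.78), Nr4a3 (0.49) and Sstr2 (-0.78) passed with the block alone.

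**Figure D5:**
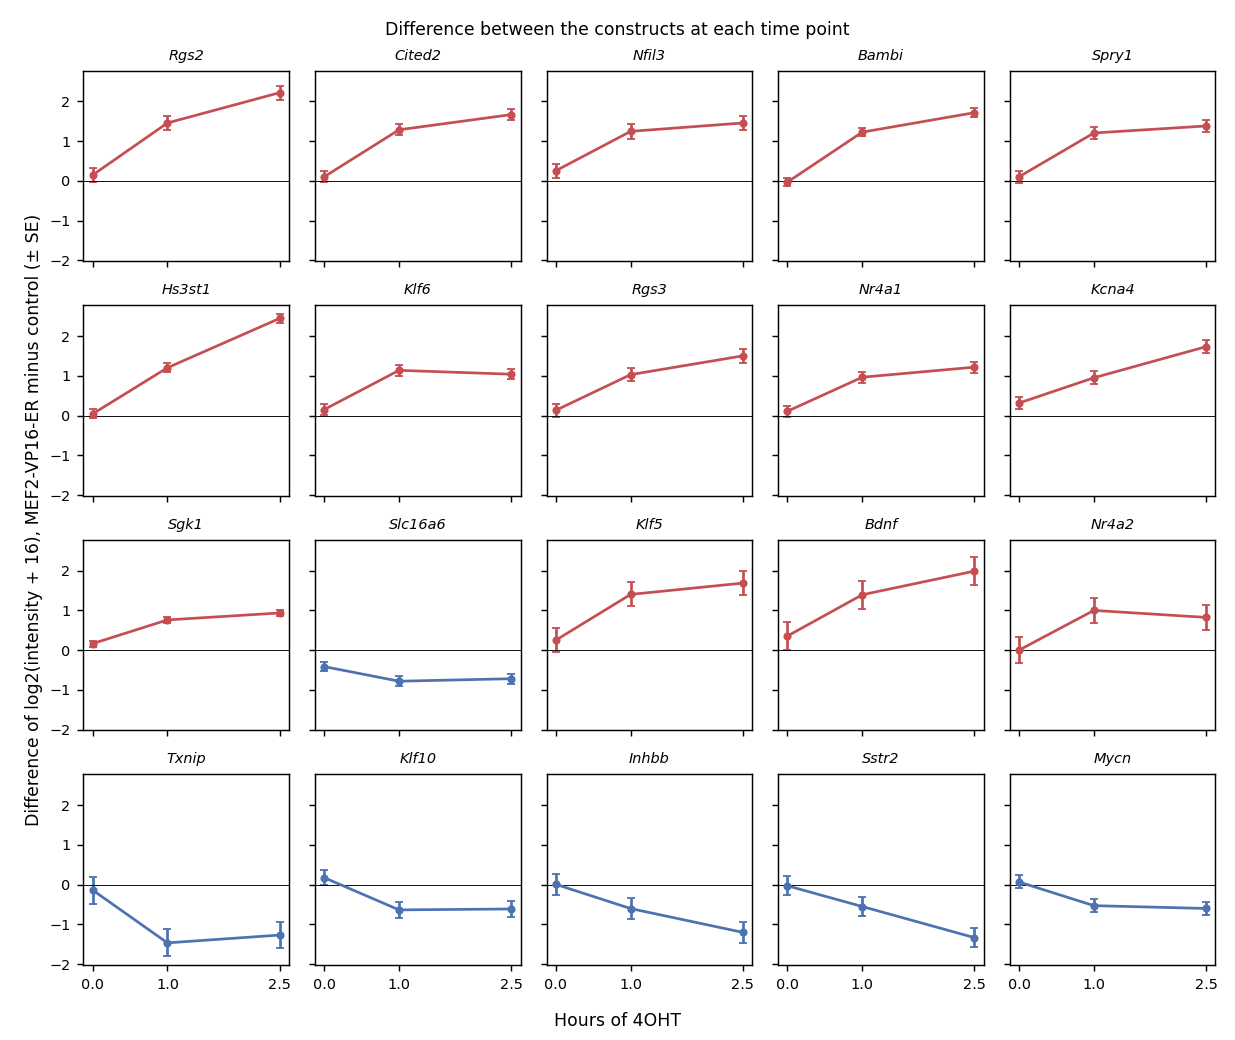
Difference of log2(intensity + 16) between MEF2-VP16-ER and control neurons at 0, 1 and 2.5 h of 4OHT (x axis) for 20 of the called genes, with bars of 1 SE from the fit without the block (red, higher at 1 h; blue, lower). At 0 h the points lie between -0.42 (Slc16a6) and 0.35 (Bdnf), and Hs3st1 goes on to 2.44 while Klf6 stays at 1.04.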

How the data were processed

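Affymetrix arrays measured labelled RNA of cultured neurons in 6 groups of 3, and the deposited table holds 1 intensity per probe set and array on a linear scale. They were used as deposited; how they were normalized is not given in the sources. Control probe sets (57) were left out. Of 31042 tested, 20826 carried 1 gene symbol, 436 several and 9780 none, for 14217 genes.

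All 18 arrays entered 1 linear model of log2(intensity + 16) with a mean for each group (limma, lmFit and eBayes, 12 residual degrees of freedom). P-values were adjusted by Benjamini-Hochberg over all probe sets, with a threshold of 0.05. A second fit added the replicate number as a block (10 degrees of freedom), because same-numbered arrays had residual correlations above 0.1 at 1 h; those of unlike numbers were between -0.67 and 0.25. The rule also held from 1 h to 2.5 h, but not from 0 h to 1 h (17 of 18 pairs). Groups and numbers came from the labels.

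Genes are named where they were called without the block and the groups did not overlap, or were called with the block alone and differed the same way in 3 pairs, up to 15 in each direction. Up to 4 members of each of 28 lists, and some genes of interest, are also named. The lists held 623 symbols, of which 563 were measured, each by its brightest probe set. The members and lists were chosen with earlier results of these data known.

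Steps were tested on simulated data over 31042 probe sets. The simulated differences were placed only in probe sets above the median level, with independent normal noise, so recovery among dimmer probe sets was not measured. At 1 h the fit recovered 39 of 40 simulated differences of 2 log2 units, 74 of 80 of 1 and 33 of 80 of 0.5, beside 2 false calls; the blocked fit recovered 40, 80 and 58, beside 13 false calls. Software: R 4.3.3 with limma 3.58.1, and Python 3.11.15 with pandas 2.3.3 and matplotlib 3.10.9.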

Additional observations from a re-analysis of the deposited data

Results flagged for a closer look

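Each of 3 probe sets called at 1 h without the replicate block had a construct difference that itself differed between time points (limma, no block, adjusted over 31042 probe sets). For Bambi the difference at 1 h exceeded that at 0 h by 1.26 log2 units (adjusted p = 0.0200). For Hs3st1 the difference at 2.5 h exceeded that at 1 h by 1.24 (adjusted p = 0.00801). For a probe set without a gene name it exceeded that at 1 h by 1.29 (adjusted p = 0.000109). That probe set read 122, 117 and 117 in control neurons and 194, 159 and 176 with MEF2-VP16-ER at 1 h, a difference of 0.51 ± 0.07 that stood at 1.80 at 2.5 h. Groups of 3 arrays were not tested for single arrays that stand apart.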

How the results depend on the processing

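The 19 calls at 1 h became 12 with 1 probe set per gene, 0 with the 6 arrays alone, 79 with the replicate block and 76 with the block on the 6 arrays alone, and ranged from 1 to 18 when an array or a replicate number was left out (7, 1 and 18 without numbers 1, 2 and 3). With the block the 79 calls were 64 to 88 under the other settings, which were added after the values were seen apart from the 6 arrays alone, and 25 to 55 with arrays or numbers left out (33, 25 and 34 without numbers 1, 2 and 3). The 1 call for the difference between 1 h and 0 h became 3 with quantile normalization, 2 with median centring, with 1 probe set per gene, with the brighter probe sets alone or with a trended, robust eBayes, 0 with the arrays of the contrast alone, 9 with the replicate block and 10 with the block on those arrays alone, and was 0 to 2 with arrays left out. The 13 calls from 1 h to 2.5 h became 7 with the brighter probe sets alone (above the median level), 1 with the arrays of the contrast alone, 124 with the replicate block and 46 with the block on those arrays alone, and were 0 to 13 with arrays left out. The pseudocounts of 1 and 64 moved none of the counts by over 1.5 times. For named genes a result was counted anew under each setting, so these counts are not numbers of genes. Of these results 66 passed that had not before, 72 no longer passed and 0 that passed in either fit changed direction. Some that passed in neither, such as Mef2c and Scd, changed sign with an array left out. With the mean over a gene's probe sets, list medians moved to 0.13 for effectors, 0.05 for MEF2 genes and -0.01 for cell adhesion, and changed sign, from values within 0.03 of 0, for estrogen receptor targets (0.01), glutamate receptors (0.03), astrocyte markers, activin and BMP signalling, interferon response and muscle targets. With 3 arrays a group, differences near 0.5 log2 units were often missed.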
